A study of Drosophila melanogaster with 4 samples.

Results

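The last 5 Mb of the X chromosome arm, next to the centromere, were examined for histone H3 dimethylated at lysine 9 (H3K9me2) in heads of adult Drosophila melanogaster. The members are all regions classed as enriched whose midpoint lies past position 17422827 of X, an arm sequence of 22422827 bp with its centromere at the right end (FlyBase Release 5, per the file headers). This gave 312 of 6264 regions in replicate 1, 477 of 10907 in replicate 2 and 550 of 10762 in the authors' combined list. The rule uses position only, and it left out 0 depleted regions, since the lists held 0 of them on X. All flies were wild-type Oregon-R adults, labelled as mixed adult and raised in population cages, and heads were collected with sieves. Crosslinked chromatin was precipitated with an antibody labelled as a new lot, giving 2 ChIP libraries, each with 1 of 2 input libraries as its control. Nothing in the labels ties the replicates to separate cultures of flies, so p-values and SDs measure only the spread between these samples, which may be technical. Sex and age of the flies are not given, and heads mix many cell types. Fewer cells carrying the mark and less of it per cell cannot be told apart.

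H3K9me2 marks heterochromatin, where it is written by histone methyltransferases such as Su(var)3-9 and eggless. Heterochromatin protein HP1 binds this methylated lysine and helps to keep the chromatin compact. In flies the mark is densest around the centromeres, where transposons and satellite repeats accumulate. The base of the X is known for flamenco, a source of piRNAs that silence transposons, and for the ribosomal RNA genes in the deeper heterochromatin. No gene annotation of Release 5 was used, so regions are given by position and their genes were not analysed here.

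Coverage did not climb evenly towards the centromere. In replicate 1 it was on average higher over the last 0.9 Mb than before, while in replicate 2 the same place showed only a small difference. Bins of 100 kb were covered over 0% to 46.6% before that place in replicate 1 and 10.9% to 62.0% after it. These ranges overlap. The covered share, the part of a window's length inside enriched regions, was 21.8% of the last 5 Mb in replicate 1 and 32.0% in replicate 2. On the rest of X it was 13.5% and 26.1%. The proximal share was thus higher in 2 of 2 replicates, by 8.35 and 5.94 percentage points, a mean of 7.15 ± 1.70 (SD, n = 2). With only 2 replicates, a two-sided exact permutation test by sign flips cannot go below p = 0.5, which is the value it gave. The ratio of the shares was 1.62 and 1.23, a mean of 1.42 ± 0.28 (SD, n = 2). Without the last 0.9 Mb, a window chosen after the values were seen, the difference was 3.90 percentage points in replicate 1 and 4.23 in replicate 2.

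By steps of 1 Mb, counted towards the centromere, the shares in replicate 1 were 17.8%, 12.8%, 22.0%, 16.3% and 40.2%. The 17 steps of the rest of X ranged from 5.66% to 20.9%, so the last megabase stood far above that range and the 22.0% step just above it. In replicate 2 the shares were 32.7%, 27.7%, 37.5%, 23.2% and 39.1%, and the 17 distal steps ranged from 15.1% to 40.6%. The last megabase therefore ranked 1st of the 22 steps in replicate 1 and 2nd in replicate 2. The step above it in replicate 2 was at the other end of the arm, at X 1422828–2422827. In both replicates the megabase just before the last was lower than the one before it.

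**Figure D1:**
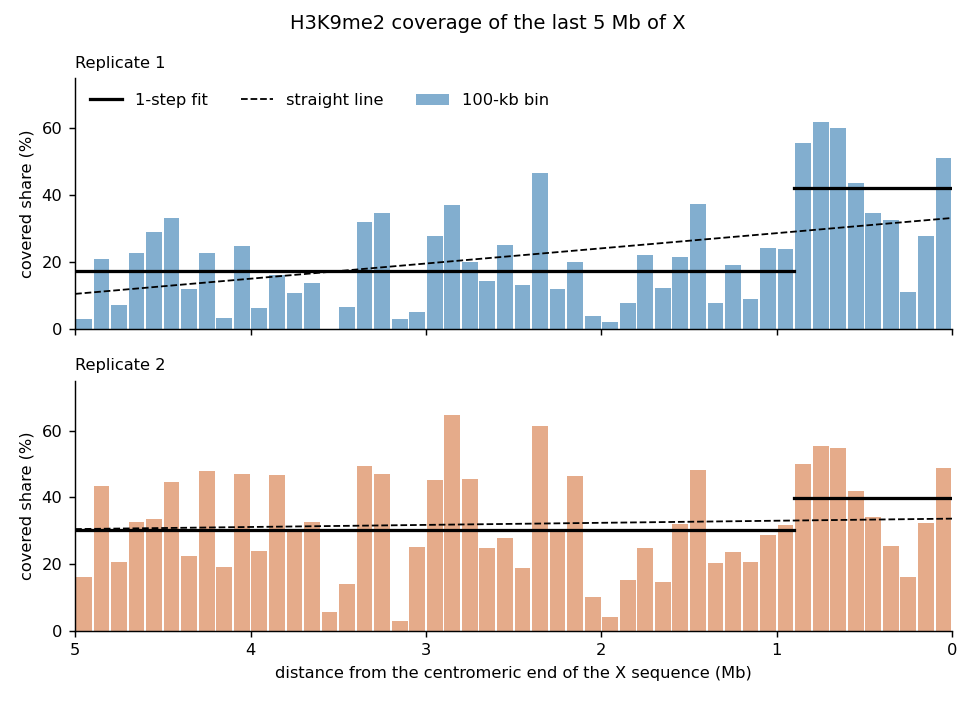
Covered share (percent, bars) of 50 bins of 100 kb along the last 5 Mb of X in each replicate, against the distance from the centromeric end in Mb, with the best single step (solid) and a straight line (dashed). The fitted step lies 0.9 Mb from the end in both panels, and it is 24.7 percentage points high in replicate 1 and 9.53 in replicate 2.

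A constant, a straight line, 1 step and 2 steps were fitted by least squares to the 50 bins of 100 kb. In replicate 1 a single step explained 37.4% of the variance between bins and a line 17.9%. The best step lay at 21522828, 0.9 Mb from the arm end. The 41 bins before it had a mean of 17.4% ± 11.5 (SD over bins) and the 9 bins after it 42.1% ± 17.0. In replicate 2 the best step lay at the same bin, with 30.3% ± 15.2 before and 39.9% ± 13.8 after, but it explained only 5.86% of the variance and a line 0.36%.

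The Bayesian information criterion (BIC), which is lower for a better fit after a charge for each free parameter, put the step first over the line and the constant in replicate 1. There it was lower by 9.64 than for the line and by 15.6 than for the constant. With 2 steps it was lower again than with 1, by a difference of -1.91. In replicate 2 the constant had the lowest value, and the step was 4.81 above it and the line 3.73 above it. Neighbouring bins were correlated, with a lag-1 r of 0.43 in replicate 1 and 0.14 in replicate 2, so these values are descriptions without a test. In the combined list the best step was at 1 Mb from the end and explained 16.0% of the variance, and its BIC was 0.90 below that of the constant. The boundary at 0.9 Mb was taken from this fit. Differences across it in coverage, in highly covered bins and in the number and length of regions are therefore a description. The slope of the line was 4.55 percentage points per Mb over the 5 Mb in replicate 1 and 0.71 with the last 0.9 Mb set aside. In replicate 2 it was 0.63 over the 5 Mb and -1.63 with them set aside. From bin to bin, the share was higher in 27 cases and lower in 22 in each replicate.

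The last 0.9 Mb were themselves uneven. In replicate 1 the bins, counted towards the end, were at 55.8%, 62.0%, 60.2%, 43.6%, 34.7%, 32.7%, 10.9%, 27.9% and 51.1%. Replicate 2 gave 50.1%, 55.3%, 54.9%, 42.0%, 34.0%, 25.3%, 16.2%, 32.3% and 48.6%. The bin just before these stood at 23.7% and 31.8%. In both replicates 3 bins of 50% or more thus came first, followed by lower values down to a minimum 0.2 to 0.3 Mb from the end and a high last bin. The difference at the edge was not the largest between neighbouring bins in either replicate. At 2.4 Mb from the end the share went from 13.2% to 46.6% in replicate 1 and from 18.9% to 61.4% in replicate 2. Accordingly, in replicate 1 the best fit of 2 steps placed the plateau between 0.9 and 0.6 Mb from the end, at 59.3%, between 17.4% before and 33.5% after, and explained 48.4% of the variance. In replicate 2 the best 2 steps instead bounded a low stretch from 2.1 to 1.6 Mb from the end, at 13.7% between 33.4% and 35.3%.

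Of the 224 bins of 100 kb on X in replicate 1, 4 were covered over 50% or more (1.79%), and all 4 lay in the last 5 Mb and within its last 0.9 Mb. In replicate 2 there were 20 such bins on X (8.93%). The last 5 Mb held 5 of them among 50 bins, a share of 10.0% close to that background, and 3 of the 5 lay in the last 0.9 Mb.

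**Figure D2:**
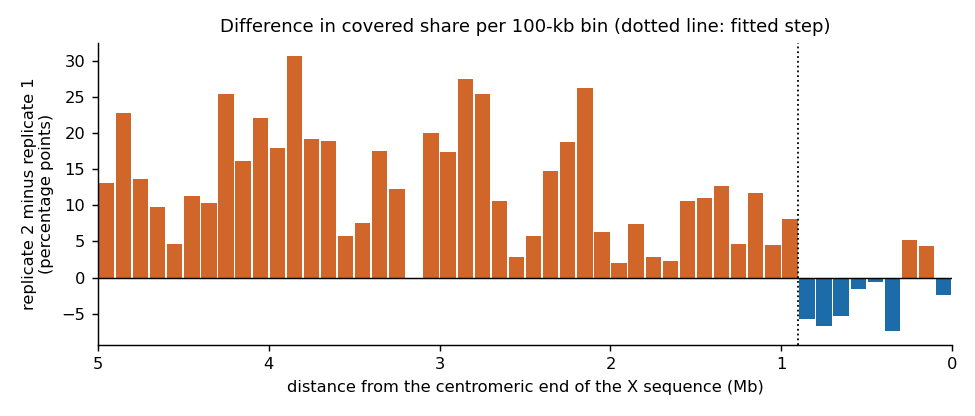
Replicate 2 minus replicate 1 in covered share (percentage points) for each 100-kb bin, against the distance from the centromeric end in Mb. Bins before the fitted step (dotted line) average 12.96 points, and those after it average -2.22 points.

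The replicates had nearly the same coverage in the last 0.9 Mb and different coverage before it. Replicate 2 was higher in 40 of the 41 bins before the step, by a mean of 12.96 percentage points, and in 2 of the 9 bins after it, where the mean difference was -2.22 points. The size of the step thus depended on the share before it. Read depth is unknown in both libraries, and its part in this difference was not tested. The ups and downs along the 5 Mb were otherwise alike, with Pearson's r of 0.81 and Spearman's rho of 0.85 over the 50 bins, which share libraries and neighbourhood.

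In each replicate the last 0.9 Mb had more regions per Mb and longer ones than the sequence before it. Coverage is made up of the number and length of regions, and the boundary was fitted to coverage. These values thus describe the same difference and are not separate support for it. In replicate 1 there were 91.1 regions per Mb there and 56.1 per Mb in the 4.1 Mb before it, with mean lengths of 4622 bp and 3095 bp. In replicate 2 the densities were 102.2 and 93.9 regions per Mb and the mean lengths 3899 bp and 3230 bp. The stretch makes up 0.9 of the 5 Mb and held 34.7% of the covered length in replicate 1 and 22.4% in replicate 2. In the combined list the density was slightly lower in the stretch, 108.9 against 110.2 regions per Mb, and the mean length higher, 4825 bp against 3192.5 bp. Regions of at least 10 kb numbered 23 of 1117 on X in replicate 1 (2.06%) and 49 of 1938 in replicate 2 (2.53%). In the last 5 Mb there were 13 of 312 (4.17%) in replicate 1, of which 7 lay in the stretch, and 15 of 477 (3.14%) in replicate 2, of which 5 did. The rest of X had 10 of 805 (1.24%) and 34 of 1461 (2.33%).

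Over the 5 Mb as a whole, median region length and score were slightly above those of the rest of X. Median length was 2413.5 bp against 2146 bp in replicate 1 and 2402 bp against 2314 bp in replicate 2. Mean lengths were 3496 bp against 2915 bp and 3359 bp against 3113 bp, and the longest regions 38584 bp against 15431 bp and 23291 bp against 22292 bp. The deposited score is the authors' own value, has no stated unit and is compared within a list only. Its median was 0.95 against 0.91 in replicate 1 and 0.99 against 0.95 in replicate 2. Scores ran from 0.52 to 3.73 in replicate 1 and from 0.15 to 4.23 in replicate 2, and longer regions scored higher (Spearman's rho 0.72 and 0.75 across regions).

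**Figure D3:**
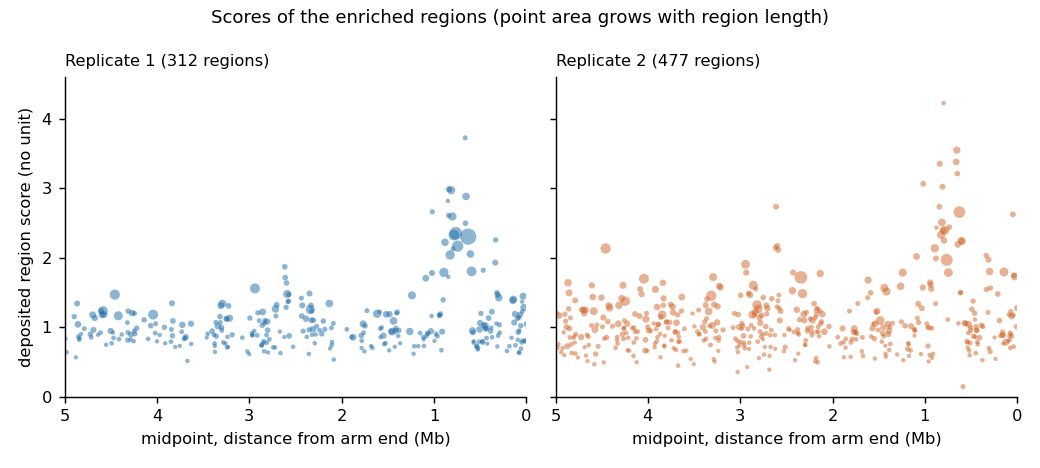
Deposited score (no unit) of each enriched region in the last 5 Mb of X against the distance of its midpoint from the arm end in Mb, for replicate 1 (312 regions) and replicate 2 (477 regions). Scores of 2 or more are crowded into the last 0.9 Mb, with 17 of 18 in replicate 1 and 21 of 28 in replicate 2.

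High scores were concentrated in the last 0.9 Mb, as seen with a limit of 2 that was chosen after the scores were known. On X, 29 of 1117 regions of replicate 1 (2.6%) and 45 of 1938 of replicate 2 (2.32%) reached it. In the last 5 Mb 18 did in replicate 1, 17 of them in the last 0.9 Mb, and 28 in replicate 2, 21 of them there. The rest of X had 11 of 805 and 17 of 1461. Some high scores of replicate 2 also lay close together outside the last 0.9 Mb. They were 2.15, 2.73, 2.17 and 2.11, between 2.62 and 2.59 Mb from the end. The regions of replicate 1 at these places were below the limit, with 1.87, 1.72, 1.64 and 1.48. In the combined list 29 of 2194 regions of X reached the limit, 15 of them in the last 5 Mb and 10 in the last 0.9 Mb. The rest of X had 14 of 1644 there, and also the highest score on X of that list, 3.96. The stretch was also split at 0.5 Mb from the end, a place chosen after the values were seen, so the contrast is a description. Within the stretch, the part from 0.9 to 0.5 Mb from the end had the higher scores, with a median of 2.05 in replicate 1 and 1.98 in replicate 2. The last 0.5 Mb had medians of 1.01 and 0.96, close to those of the 4.1 Mb before the stretch, 0.94 and 0.98. Covered shares of these parts were 55.4% and 31.4% in replicate 1 and 50.6% and 31.3% in replicate 2.

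**Figure D4:**
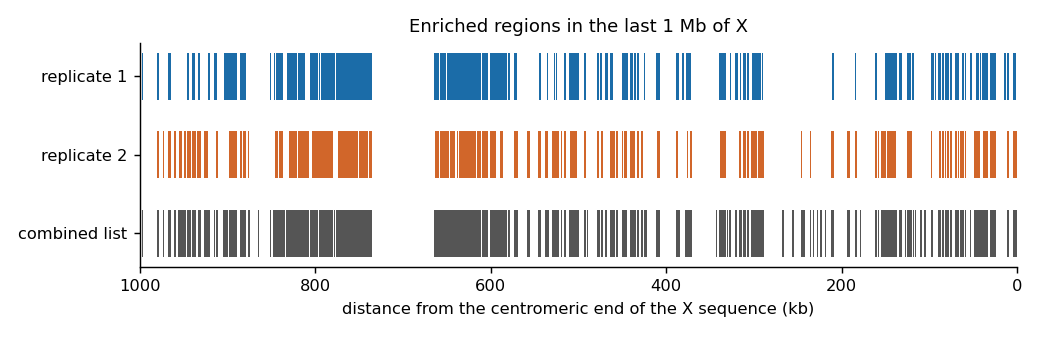
Enriched regions of each list (boxes) in the last 1 Mb of X, against the distance from the centromeric end in kb. Long boxes lie on either side of an uncovered gap of 70.9 kb in the 3 lists, and mostly shorter ones lie in the last 500 kb.

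Most of the longest shared stretches lay close together in the first part of the last 0.9 Mb. Of the 8 longest stretches shared by the replicates (gaps up to 1 kb joined), 6 lay between 829.4 and 611.4 kb from the end. The longest of these, X 21784480–21811422 (26.9 kb), was covered by 1 region in replicate 1 with a score of 2.30 and by 4 regions in replicate 2 with a mean score of 2.35. It belonged to the longest region of replicate 1, X 21772839–21811422 (38.6 kb), which replicate 2 covered over 89.0% with 6 regions. The combined list held a single region of 53.2 kb there, X 21758512–21811716, which spanned 4 regions of replicate 1 and 8 of replicate 2. The next stretches in length were X 21648765–21671323 (22.6 kb, mean scores 2.34 and 1.90) and X 21593457–21611791 (18.3 kb, 2.50 and 2.43). The other 3 were X 21758877–21775852 (17.0 kb), X 21627488–21643008 (15.5 kb) and X 21672392–21687314 (14.9 kb), with mean scores from 1.95 to 3.42 over both replicates.

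These stretches form a pair of clusters with a break between them. The break, X 21687563–21758511 (70.9 kb), was covered by 0 regions in the 3 lists. It was the third longest uncovered stretch of the last 5 Mb, after X 19238295–19344937 (106.6 kb) and X 20390047–20462939 (72.9 kb). Whether reads can be placed in these stretches was not tested.

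The 3 highest scores of each replicate fell within or close to these stretches, between 841.1 and 650.8 kb from the end. In replicate 1 they were 3.73 at X 21758514–21760887, 2.99 at X 21581723–21586127 and 2.97 at X 21602977–21611791. In replicate 2 they were 4.23 at X 21625128–21626774, 3.55 at X 21765171–21772007 and 3.38 at X 21758877–21764495. Each of these 6 regions was touched by the other replicate, with a covered share between 30.5% and 100%.

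Long shared stretches also lay away from the arm end. The longest of all in the last 5 Mb was X 20068545–20098864 (30.3 kb), which lies 2.34 Mb from the end. It was covered by 6 regions in replicate 1 with a mean score of 1.24 and by 2 in replicate 2 with 1.66. One of these was the longest member of replicate 2, X 20068328–20091618 (23.3 kb, score 1.72). The other of the 8 stretches that lay away from the end was X 19474522–19490058 (15.5 kb), with mean scores of 1.49 and 1.87. Both stretches scored below each of the 6 near the end, in either replicate. Of the 242 shared stretches of the last 5 Mb, 57 lay in the last 0.9 Mb. At least 10 kb long were 14 of the 242, and 8 of these lay in the last 0.9 Mb. Shared stretches of the rest of X were not counted.

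Replicate 2 and the combined list reached the end of the arm sequence itself, and replicate 1 stopped 1.54 kb short of it. The last region of replicate 1 was X 22418455–22421288 with a score of 1.05, and that of replicate 2 was X 22418257–22422827 with a score of 1.28, cut at the arm end. The separate scaffold of X heterochromatin, XHet (204112 bp), was covered over 65.9% in replicate 1 and 59.6% in replicate 2. This was more than any of the 1-Mb steps of X, but XHet is shorter than these steps. The highest 100-kb bin of the examined window was below XHet in replicate 1, at 62.0%, and lay 0.7 to 0.8 Mb from the end. In replicate 2 it was above XHet, at 64.6%, but lay 2.8 to 2.9 Mb from the end. The highest bin of the last 0.9 Mb in replicate 2 was below XHet, at 55.3%. At the distal edge of the window, the first member of replicate 1 was X 17429295–17430687 (score 0.83) and the last region outside it X 17405647–17407413 (0.80). In replicate 2 these were X 17439127–17440565 (1.20) and X 17406232–17407551 (0.72).

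The overlap of the replicates in the last 0.9 Mb was higher or lower than before it, depending on the measure. They shared 53.1% of the union of their covered length in the last 5 Mb (Jaccard index) and 45.3% on the rest of X. Within the 5 Mb it was 66.5% in the last 0.9 Mb and 48.5% before. This index also depends on the covered shares. The shared length made up 85.6% of replicate 1 in the last 5 Mb, with 77.8% in the last 0.9 Mb and 89.7% before, and 91.6% on the rest of X. It made up 58.3% of replicate 2, with 82.1% in the last 0.9 Mb and 51.4% before, and 47.3% on the rest of X.

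Of the regions of X in replicate 1, 1047 of 1117 (93.7%) were touched by replicate 2 by at least 1 bp, and among members this was 282 of 312, or 90.4%. For replicate 2 it was 975 of 1938 on X (50.3%) and 273 of 477 members, or 57.2%. In the last 0.9 Mb replicate 1 touched 80 of the 92 regions of replicate 2, and before it 193 of 385. Replicate 2 touched 69 of the 82 regions of replicate 1 in the last 0.9 Mb (84.1%) and 213 of 230 before it (92.6%). Members of replicate 2 that replicate 1 did not touch had a median score of 0.86 and a median length of 1865.5 bp, against 1.18 and 3428 bp for the others. The longest of them was X 18520740–18526217 (5.48 kb, score 1.29), followed by X 17460649–17465946 (5.30 kb) and X 19628960–19633622 (4.66 kb). The longest member of replicate 1 that replicate 2 did not touch was X 22287534–22291785 (4.25 kb, score 1.07), followed by X 21842291–21845396 (3.11 kb) and X 21519237–21522226 (2.99 kb). These 3 lay in or at the edge of the last 0.9 Mb, and those of replicate 2 lay before it.

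**Figure D5:**
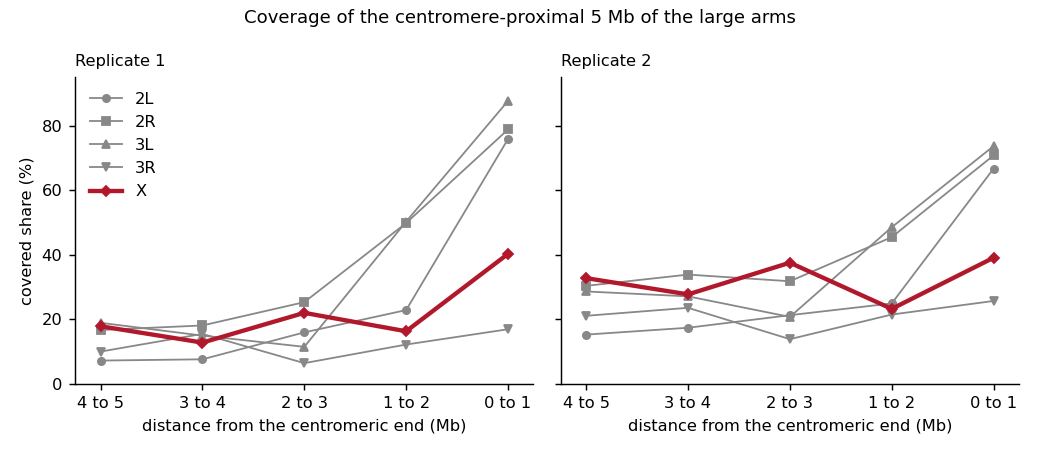
Covered share (percent) of the 5 centromere-proximal 1-Mb steps of each large arm in each replicate, X in red and the other arms in grey. The last megabase of X stands at 40.2% and 39.1%, between 3R and the arms 2L, 2R and 3L.

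The last megabase of X stood out from the 4 before it less than on 2L, 2R and 3L, and more than on 3R, in both replicates. It exceeded their mean on X by 23.0 percentage points in replicate 1 and 8.76 in replicate 2. The same difference was 62.4 and 47.0 points on 2L, 51.3 and 35.4 on 2R, 63.8 and 42.4 on 3L, and 5.90 and 5.69 on 3R. The excess of 2L was larger than that of X by 38.8 points ± 0.82 (SD, n = 2), that of 3L by 37.2 ± 5.00 and that of 2R by 27.5 ± 1.15. That of 3R differed from X by -10.1 ± 9.95 points, about the spread between replicates. For each of these 4 arms the exact permutation test by sign flips (two-sided, n = 2) gave its smallest possible value, p = 0.5. On 2L, 2R and 3L the megabase before the last was also above each of the 3 before it, with 49.8% and 45.4% on 2R, 50.3% and 48.5% on 3L, and 22.8% and 24.9% on 2L. On X that megabase was at 16.3% and 23.2%, near the level of 2L and below its own neighbour in either direction. The depth of heterochromatin that each assembled arm includes was not analysed here.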

How the data were processed

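ChIP-seq regions from 2 H3K9me2 ChIP libraries of adult fly heads, and the authors' combined list, were analysed. The submitters' processing notes name the aligner Bowtie, version 0.12.7. The caller of the regions and its threshold were not given in the sources used here. The deposited score of each region has no stated unit and is above 0 in all enriched regions. Coordinates are FlyBase Release 5, per the file headers, and 1-based; an end past the arm was set to its length. The lists carry no read counts, so depth is unknown and no counting interval could be given. Input libraries were not analysed here.

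Covered shares, 100-kb bins, least-squares fits, overlaps and sign-flip tests were computed with Python 3.11.15, numpy 2.4.6 and pandas 2.3.3. Fits had at least 3 bins in each segment, and overlaps at least 1 bp. The code of the fits was run on simulated profiles with independent noise. These do not cover correlated bins or a step as small as that of replicate 2. Regions named are the 8 longest shared stretches, the 3 longest of each replicate untouched by the other, the 3 highest scores of each replicate, the 3 longest uncovered stretches, and the last of each list. The members and lists were chosen with earlier results of these data known. Alternatives covered score, gap, length, window, bin and list choices.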

Additional observations from a re-analysis of the deposited data

How the results depend on the processing

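The proximal minus distal difference kept its sign under all 11 alternatives, from 4.06 to 19.1 percentage points. Leaving out a replicate repeats the value of the other, and a minimum of 1 kb changed nothing, so these alternatives could not change the sign. Leaving out the last 0.9 Mb, chosen after seeing the data, gave 4.06. The mean proximal share of 26.9% was 38.3% in the combined list and 39.7% in the last 1 Mb, where the ratio was 2.15; leaving out each replicate gave 21.8% to 32.0%, differences of 5.94 to 8.35 points and ratios of 1.23 to 1.62. The step at 0.9 Mb was at 1 Mb in the combined list and with 250-kb bins, and at 0.95 Mb with 50-kb bins or bins moved by 50 kb. Over the whole X it stayed at 0.9 Mb in replicate 1 and lay 7.7 Mb from the end in replicate 2 and in the combined list. The mean of 4.3 Mb over the replicates is the position in neither. In replicate 2 this distant step went from 24.6% to 32.7%, with a BIC difference of -3.04 from the constant. The cause was not tested. The lead of a step over a line in variance explained in the 5 Mb, a mean of 12.5 percentage points, was 5.50 to 19.5 with a replicate left out. It was 23.2 with 250-kb bins. The place of the step is searched and it has more free parameters than the line, which favours it in this measure. By BIC, the step was 1.07 above the line in replicate 2. The Jaccard index of 53.1% was 49.7% with the better-scoring 50% of regions, 53.8% with joined gaps, 52.1% at equal covered length, 58.9% in the last 2 Mb, 63.8% in the last 1 Mb and 48.5% without the last 0.9 Mb. A minimum of 1 kb removed 0 regions. No paired analysis was possible because a single group has values; windows were compared within each replicate.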
